A study of Rattus norvegicus with 241 samples.

Results

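The interleukins and their receptors of the rat were followed through bulk and single-cell RNA-seq of mammary glands and mammary tumors from female rats given a TGFβ receptor inhibitor (TGFBRi) or vehicle. Members were chosen by symbol alone, as every gene whose name starts with IL and a digit. They made up 80 of the 21707 genes measured, with 73 of 16820 genes in the bulk tables and 76 of 18566 in the single-cell tables. Among them were 39 receptor chains, 38 ligands or antagonists, 2 soluble binding proteins (IL18BP and IL22RA2) and IL4I1, an amino acid oxidase that shares the prefix but is no interleukin. By family, 20 belonged to the IL-1 family, 14 to the IL-6 and IL-12 family, 14 to the common gamma chain family, 11 each to the IL-10 and IL-17 families and 10 to the rest. IL15RA, IL17D, IL18RAP, IL19, IL23R, IL27 and IL4I1 were listed only in single cells, and IL1F10, IL3, IL36A and IL9 only in bulk.

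Interleukins are secreted proteins through which immune, stromal and epithelial cells signal to one another. The IL-1 family (IL1A, IL1B, IL18, IL33) acts through paired receptors with an intracellular domain shared with Toll-like receptors and the MYD88 and IRAK adaptors, and IL1RN is its natural receptor antagonist. Most other interleukins bind receptors that lack enzyme activity and signal through JAK kinases and STAT factors, with the signalling chains IL6ST (shared by IL6 and IL11) and IL2RG (shared by IL2, IL4, IL7, IL15 and IL21). IL17 receptors use a separate adaptor, TRAF3IP2. TGFβ is known to control fibroblasts, mammary epithelium and lymphocytes, and IL11 is a well-known TGFβ-responsive cytokine of fibroblasts.

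The study asked whether a short block of the TGFβ receptor around puberty leaves lasting changes in the gland. All treated rats received LY2157299 (galunisertib) by oral gavage at 75 mg/kg, 2 doses a day, for 10 days except in the estradiol (E2) experiment, where dosing ran for 21 days. Bulk RNA-seq of sorted cells covered peripubertal ACI inbred rats dosed from 35 days of age and sampled 0, 7 and 14 days after dosing ended (3 rats per arm and day). It also covered peripubertal Sprague Dawley (SD) outbred rats dosed from 24 days of age (4 per arm, day 0) and adult ACI rats of 18 to 24 weeks, virgin or parous, with 4 per arm except for CD45+ cells, where the arms held 4 virgin vehicle, 3 virgin TGFBRi, 2 parous vehicle and 4 parous TGFBRi rats. SD rats dosed from 21 days and then given the carcinogen NMU (50 mg/kg) gave glands of 3 vehicle tumor-bearing, 3 TGFBRi tumor-free and 3 TGFBRi tumor-bearing rats, and tumors of 3 rats per arm, 87 days after NMU. ACI rats dosed from 38 days and given a 37 mg E2 pellet at 60 days gave 4 vehicle tumor-bearing, 4 TGFBRi tumor-free and 2 TGFBRi tumor-bearing rats with E2, and 4 vehicle and 3 TGFBRi rats without E2. The 4 TGFBRi tumor-free rats with E2 gave 7 samples, which were averaged within a rat. Glands of rats with and without E2 were taken at the end of the tumor experiment. Basal (CD24+CD29high) and luminal (CD24+CD29low) cells were sorted from the CD31-CD45- gate, immune cells as CD45+, and tumor epithelium as EPCAM+. Single cells came from sorted basal and luminal cells of peripubertal rats at day 0 (ACI, 3 per arm, and SD, 3 vehicle and 6 TGFBRi rats). They also came from unsorted whole glands of SD rats at day 0 (3 vehicle and 6 TGFBRi rats).

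The 202 bulk libraries held 4194912 to 52314784 reads, and 53 to 71 members passed the low-count filter per table. Whole glands gave 7900 to 16424 cells per rat, with a median of 2820 to 3885 UMIs per cell. The sorted sets held 16762 ACI and 39766 SD cells, and 0.418%, 1.09% and 12.1% of cell barcodes of ACI sorted, SD sorted and whole-gland cells were shared between libraries. Vehicle rat 4 stood apart among the whole glands, with 507 B cells against 3858 and 2848 in vehicle rats 1 and 2. Member calls lost without it are named, and other genes are given with all rats only. Clusters were called by a cell type with "-like" from marker lists and the members themselves were not used for clustering. In vehicle rats of the E2 experiment, E2 and tumor status cannot be told apart. In both tumor experiments, TGFBRi tumor-free rats were compared with tumor-bearing vehicle rats, so drug and tumor status cannot be told apart there. The basal and luminal libraries of day 7 vehicle rat 3 carry a control label in their titles and treatment field but a free-text description of a dosed animal, and they were kept as vehicle.

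In the whole gland, the interleukin genes were spread over stromal, epithelial and immune classes. Levels are UMI counts scaled to a total of 1000000 per class (CPM), given as the mean ± SD of the 3 vehicle rats. Of the 76 members, 44 reached 10 CPM in at least 1 class and 15 stayed under 1 CPM in all of them. Fibroblast-like cells held the highest level for 8 members, macrophage-like cells for 7, T cell-like cells for 5, and dendritic-like and mature luminal-like cells for 4 each. For 19 of the 44, no vehicle rat of the highest class overlapped with the next class. These counts were not made over all genes, so nothing particular to the members is read from them.

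**Figure D1:**
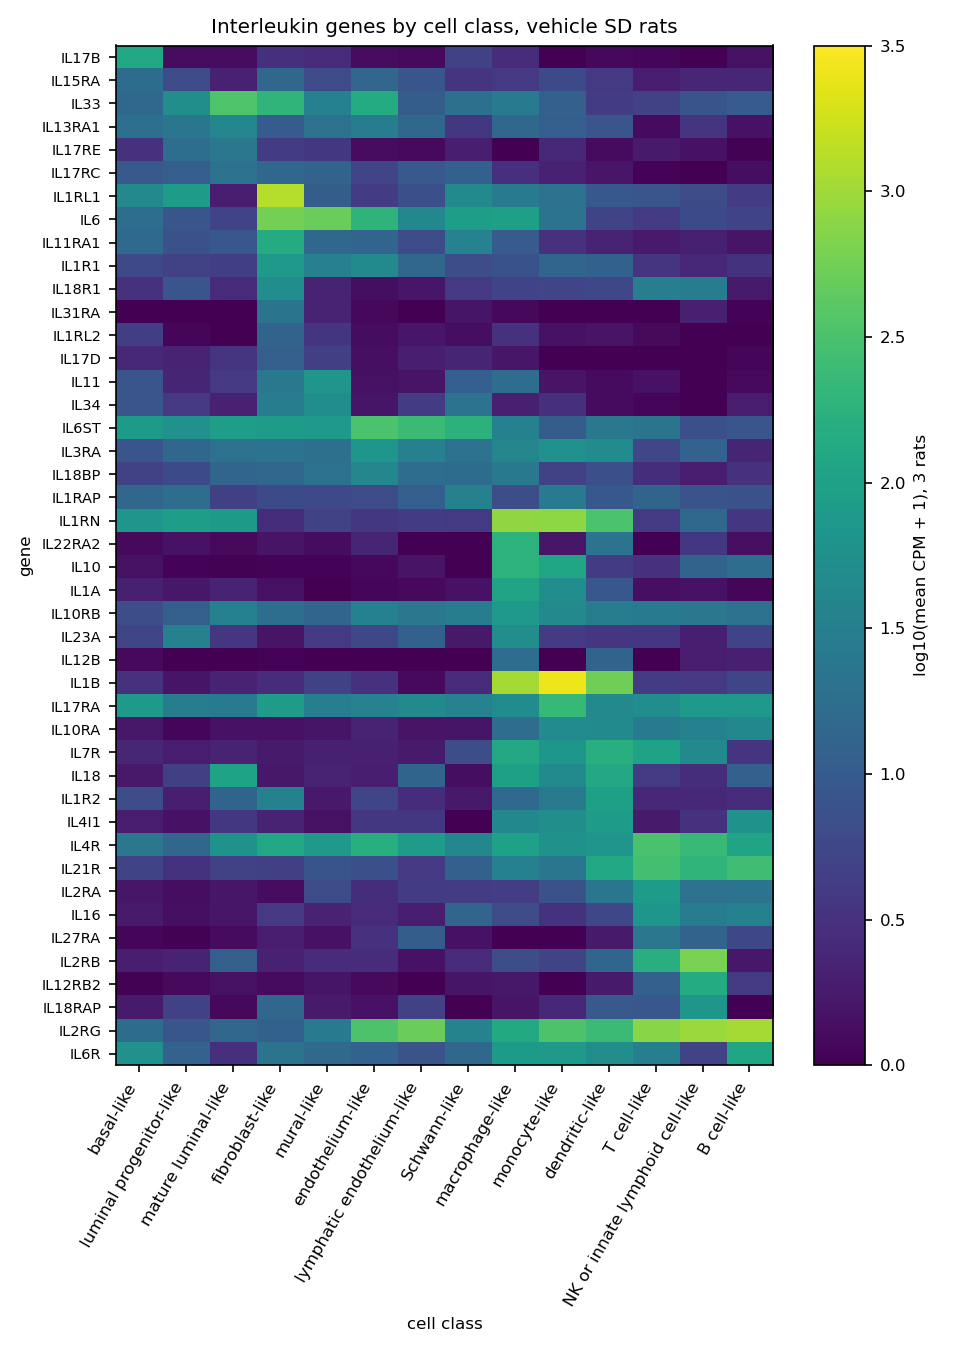
Mean level of 44 members (rows) in 14 cell classes of whole glands (columns), as log10(CPM + 1) over 3 vehicle rats. Brighter, more yellow cells are higher. IL1B is highest in monocyte-like cells (2611.5 CPM), IL1RL1 and IL6 in fibroblast-like cells (1276.4 and 595 CPM) and IL17B in basal-like cells (122 CPM).

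Among ligands, IL1B, the secreted inflammatory IL-1, stood at 2611.5 ± 511 CPM in monocyte-like cells and 1067.8 in macrophage-like cells, the next class, with no overlap. IL1RN, which blocks the IL-1 receptor, was at 837 ± 424 CPM in macrophage-like and 811 in monocyte-like cells, which overlapped. IL1A was highest in macrophage-like cells too (109 ± 44.98 CPM), as was IL10, an anti-inflammatory cytokine (183 ± 56.1 CPM). IL23A stood at 124, 14.4 and 21.1 CPM in macrophage-like cells of the 3 rats, overlapping with luminal progenitor-like cells (33.3 CPM). Other ligands were highest in stroma or epithelium. IL6 stood at 595 ± 291 CPM in fibroblast-like and 495 in mural-like cells, which overlapped. IL11 was highest in mural-like cells (65.2 ± 44.5 CPM, fibroblast-like 23.8, overlapping), and IL34, a ligand of the CSF1 receptor on macrophages, also in mural-like cells (50.3 ± 22.8 CPM, fibroblast-like 28.7). IL33, a nuclear alarmin, was highest in mature luminal-like cells (341 ± 67.6 CPM, fibroblast-like 197, no overlap). IL17B was nearly a basal-cell gene, at 122 ± 74.4 CPM in basal-like cells against 3.85 in the next class, Schwann-like cells. IL18 was highest in dendritic-like cells (130 ± 62.7 CPM), overlapping with mature luminal-like cells (106.01 CPM). IL16 was highest in T cell-like cells (67.8 ± 38.9 CPM), overlapping with B cell-like cells (33.1 CPM). IL12B, a subunit of IL12 and IL23, was at 0, 0 and 50.3 CPM in macrophage-like cells of the 3 rats, so its level rests on 1 animal.

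Among receptors, the IL-1 receptor group was led by fibroblast-like cells. IL1RL1, the receptor of IL33, stood at 1276.4 ± 699 CPM there, against 81.3 in luminal progenitor-like cells. IL1R1 (73.7 ± 36.6 CPM), IL18R1 (50.8 ± 19.8 CPM), IL1RL2 (11.98 ± 4.32 CPM), IL11RA1 (142 ± 16.1 CPM) and IL31RA (21.2 ± 15.3 CPM) were also highest in fibroblast-like cells, though IL1R1 overlapped with endothelium-like (46.003 CPM) and IL18R1 with T cell-like cells (30.9 CPM). The decoy receptor IL1R2 was highest in dendritic-like cells (97.4 ± 65.4 CPM) and the shared co-receptor IL1RAP in Schwann-like cells (33.5 ± 10.9 CPM). Most receptors of the common gamma chain family were highest in lymphocytes. IL2RG was at 1070.4 ± 48.8 CPM in B cell-like and 952 in NK-like cells, IL2RB at 623 ± 144 CPM in NK-like cells against 160 in T cell-like cells, and IL2RA at 84.98 ± 36.002 CPM in T cell-like cells. IL4R (317 ± 57.1 CPM) and IL21R (280 ± 51.5 CPM) were highest in T cell-like cells, with IL21R overlapping B cell-like cells (268 CPM). IL12RB2 (143 ± 42.1 CPM) and IL18RAP (65.1 ± 17.7 CPM), which with their partners receive IL12 and IL18, were highest in NK-like cells. IL7R was highest in dendritic-like cells (158 ± 83.8 CPM), overlapping with macrophage-like cells (130 CPM).

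Receptors outside these groups were spread more widely. IL6ST, the signalling chain for IL6 and IL11, was at 325 ± 60.1 CPM in endothelium-like and 246 in lymphatic endothelium-like cells, which overlapped. IL6R, which binds IL6 itself, was at 116 ± 12.5 CPM in B cell-like cells and 80.9 in macrophage-like cells. IL17RA, the common IL17 receptor chain, was at 219 ± 30.8 CPM in monocyte-like cells, while its partners IL17RC (19.2 ± 5.19 CPM) and IL17RE (23.6 ± 10.2 CPM) were highest in mature luminal-like cells, and so was IL13RA1 (38.98 ± 2.68 CPM). IL3RA was highest in endothelium-like cells (67.2 ± 5.38 CPM), overlapping with monocyte-like cells (58.5 CPM). IL10RB was highest in macrophage-like cells (74.8 ± 7.00 CPM) and IL10RA in monocyte-like cells (47.9 ± 6.37 CPM). IL22RA2, a soluble decoy for IL22, stood at 0.829, 229 and 324 CPM in macrophage-like cells, with 1 rat far below the others. IL15RA was highest in basal-like cells (16.2 ± 3.57 CPM) without standing apart from fibroblast-like cells (13.7 CPM).

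The 2 epithelial layers were also compared in bulk cells of young ACI vehicle rats at day 0. Of 71 members tested on log2(normalized count + 1), 21 differed between basal and luminal cells of the same 3 rats, 10 higher in basal and 11 higher in luminal cells (limma adjusted p of 0.05 or less). Of all genes, 20.5% were called. All 21 were also called with the rat as a block. Summed markers checked the sort, with the basal list at 1088 to 2272 for luminal and 146800 to 219800 for basal samples.

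IL17B, an IL17-family ligand, had the largest difference, with normalized counts of 2757, 1353 and 1690 in basal and 1.57, 5.10 and 4.97 in luminal cells (log2 fold change 8.67 ± 0.95 SE, limma adjusted p = 5e-08). No basal sample came near a luminal one. IL6R was also higher in basal cells, at 1729, 1105 and 1443 against 262, 198 and 142 (2.84 ± 0.74, limma adjusted p = 0.00506). IL34 stood at 135, 155 and 241 in basal and 27.4, 15.3 and 43.9 in luminal cells (2.65 ± 0.59, limma adjusted p = 0.00129). Further members higher in basal cells at lower counts were IL1RL2 (log2 fold change 3.80), IL7, the lymphocyte growth factor (3.63), IL27RA (3.35) and IL20 (3.33). IL1RL1, IL12A and IL20RB made up the rest of the basal group.

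Among the members higher in luminal cells, IL23A, a subunit of IL23, had normalized counts of 9970, 10485 and 9455 in luminal and 1342, 1672 and 986 in basal cells (−2.93 ± 0.59, limma adjusted p = 0.00039). IL17RE, a receptor chain for epithelial IL17C, stood at 990, 1064 and 812 in luminal and 70.3, 54.6 and 37.0 in basal cells (−4.16 ± 0.63, limma adjusted p = 1.08e-05). IL1A was at 83.8, 45.2 and 158 in luminal and 4.29, 1.63 and 11.6 in basal cells (−3.93 ± 0.98, limma adjusted p = 0.00349). None of these 3 genes had overlapping groups. IL18 was at 190, 227 and 224 against 18.9, 28.5 and 19.6 (−3.22). IL36RN (−3.84), IL18R1 (−3.58) and IL1RAPL1 (−3.02) were called on low counts, and IL33 was higher in luminal cells at 3606, 3724 and 3866 against 947, 955 and 1505 (−1.75 ± 0.58, limma adjusted p = 0.0313). IL18BP, IL15 and IL17RC completed the luminal group. Without rat 1 of the vehicle group 11 members were called, and without rat 2 13.

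**Figure D2:**
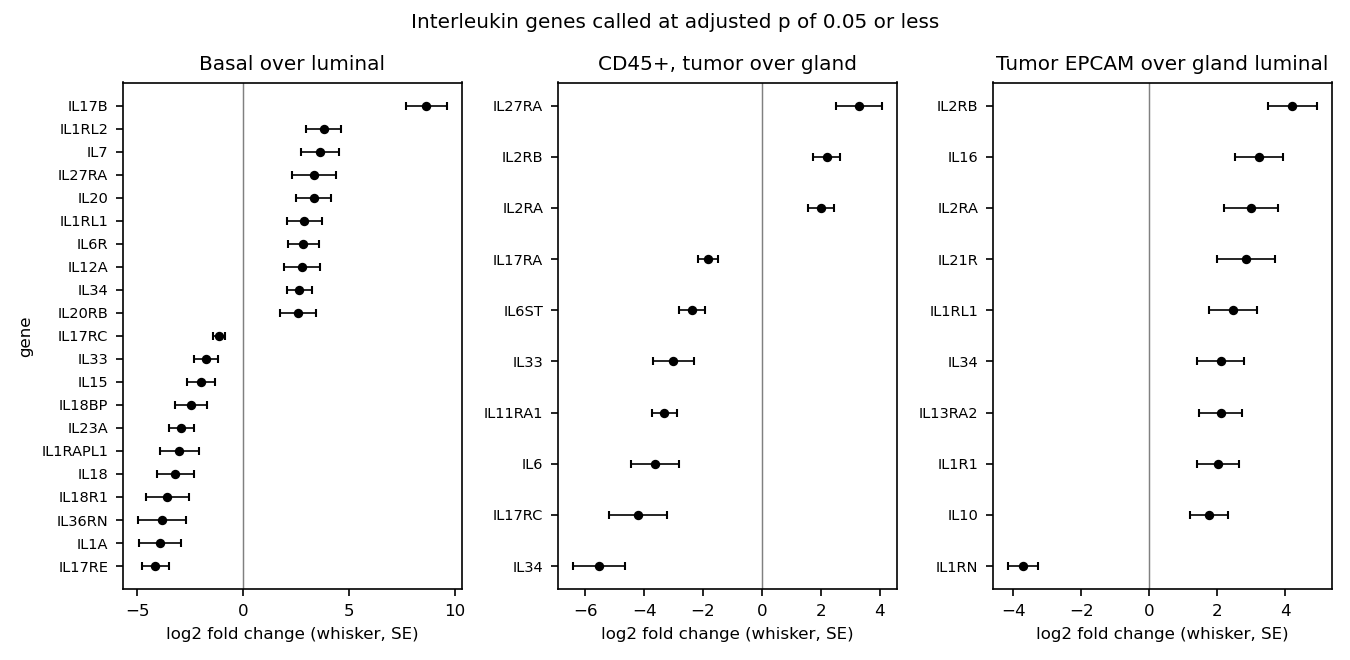
Log2 fold change ± SE (horizontal axis) of the members called in 3 comparisons of vehicle rats (3 per group): basal over luminal cells of young ACI rats (21 members), tumor CD45+ over gland CD45+ cells (10) and tumor EPCAM+ over gland luminal cells (10) of NMU rats. IL17B lies farthest to the basal side at 8.67, IL34 lowest in tumor CD45+ cells at −5.53 and IL1RN lowest in tumor EPCAM+ cells at −3.72.

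The largest set of treatment differences was in whole glands of SD rats at the end of dosing, where counts were summed per rat and class. Of 591 tests of 73 members over 14 classes, 124 passed (edgeR adjusted p of 0.1 or less), 49 higher and 75 lower with TGFBRi, and 45 members passed in at least 1 class. In fibroblast-like and mural-like cells IL6, IL11 and IL1RL1 fell (IL6 in mural-like cells not without TMM scaling). IL1RN fell in the 3 epithelial classes. IL6R rose in 6 classes and IL4R in 3 (2 without vehicle rat 4), while IL6ST, the signalling chain for IL6, fell in 4. Without vehicle rat 4, 122 of the 124 could be tested and 20 of them were not called, with 127 calls in all. Those 20 lay in mural-like cells for IL1B, IL11RA1 and IL23A (edgeR adjusted p of 0.25, 0.202 and 0.196 without that rat), in mature luminal-like cells for IL6, IL13RA1 and IL34 (0.146, 0.151 and 0.13), and in fibroblast-like cells for IL15, IL17B and IL20 (0.117, 0.173 and 0.116). Pairs were lost in endothelium-like (IL1R1 at 0.121 and IL13RA2 at 0.152), luminal progenitor-like (IL17RC at 0.125 and IL17RE at 0.268), basal-like (IL3RA at 0.129 and IL4R at 0.222) and monocyte-like cells (IL17RA at 0.209 and IL1RL1 at 0.349). Single calls were lost in B cell-like (IL10RA at 0.128), NK-like (IL17RA at 0.178) and lymphatic endothelium-like cells (IL18 at 0.169). IL10 in NK-like and IL1R1 in Schwann-like cells could not be tested. The share of members called was above that of all genes in 8 classes and below it in 6, as the plot of called shares shows, and nothing particular to the members is read from it. The 45 members and the split into 49 and 75 were not set against all genes, and nothing particular is read from them either.

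**Figure D3:**
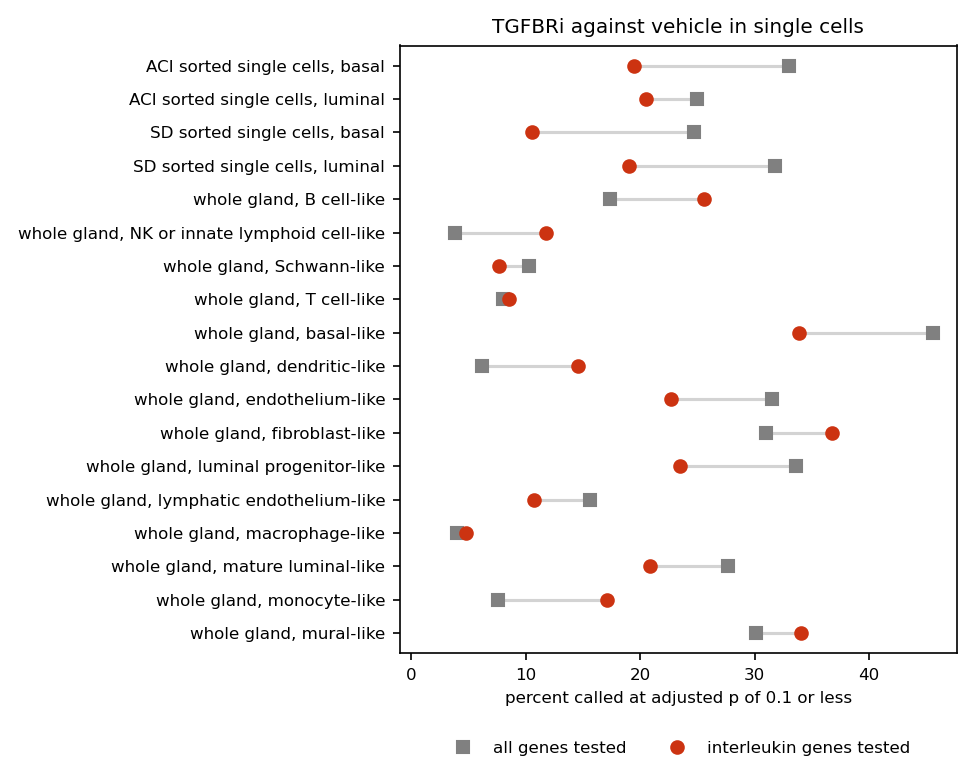
Percent of genes called at an adjusted p of 0.1 or less (horizontal axis) for TGFBRi against vehicle in 18 single-cell comparisons (rows), for all genes tested (squares) and for the interleukin genes tested (circles). In basal-like cells 33.9% of members and 45.6% of all genes were called, in fibroblast-like cells 36.8% and 31%.

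Fibroblast-like cells had the most calls, 21 of 57 members (8 higher and 13 lower), against 31% of all genes. IL6, the pleiotropic inflammatory cytokine, stood at 752, 774 and 259 CPM in vehicle rats 1, 2 and 4 and at 116, 137 and 191 (lowest, median, highest) in the 6 TGFBRi rats. The arms did not overlap, although vehicle rat 4 lay nearest to the treated rats (log2 fold change −2.21 ± 0.24 SE, edgeR adjusted p = 7.84e-05; −2.56 without vehicle rat 4). IL1RL1 was at 1651, 1707 and 470.4 CPM with vehicle and 163, 250.2 and 355 with TGFBRi, again without overlap (−2.50 ± 0.34, edgeR adjusted p = 0.000744). IL11 was at 30.9, 33.4 and 7.05 CPM with vehicle and 0.933, 2.56 and 3.45 with TGFBRi (−3.51 ± 0.44, edgeR adjusted p = 0.00037). All 7 members of the IL-1 family called in these cells were lower, of 13 tested, with a median over the 13 of −0.59 on the log2 scale. IL1R1, IL1RL2, IL1RL1, IL18R1 and IL18RAP among them are neighbours on chromosome 9. The share of all genes called lower was not set beside this count, and nothing particular to the family is read from it. IL1R1, the signalling IL-1 receptor, fell by 1.65 on the log2 scale, from 83.9, 104.19 and 33.2 CPM to 20.6, 24.5 and 36.6, with vehicle rat 4 inside the treated range. IL18RAP, the IL18 co-receptor, was at 13.3, 23.2 and 3.77 CPM against 0.516, 1.75 and 5.76, also overlapping (−2.78 ± 0.61, edgeR adjusted p = 0.0102). IL17RA was at 94.1, 98.9 and 53.4 CPM against 30.2, 34.5 and 52.1 (−1.33 ± 0.19, edgeR adjusted p = 0.000323). IL13RA2, a decoy receptor for IL13, was lower at 6.91, 3.70 and 0.695 CPM against 0.165, 0.88 and 1.72. Among the higher ones IL20RB, a chain of the IL20 receptors, was at 1.11, 1.40 and 2.18 CPM against 2.54, 7.14 and 8.43 (1.74 ± 0.37, edgeR adjusted p = 0.00443). IL12RB1, IL20 and IL15 were called higher and IL1A lower with every rat under 2 CPM. Over all members the median log2 fold change was −0.008, against 0.028 over all genes.

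IL6, IL11, IL1RL1 and IL1RN, which were lower in several classes, are shown by the 250 bases before their starts (RefSeq, GRCr8, written 5′ to 3′ on the strand of the gene), since AP-1 and SMAD factors act at promoters downstream of TGFβ. Capitals mark matches, on either strand, to TGANTCA (AP-1) or to CAGAC (SMAD, GTCTG on the other strand). The promoters of IL6 and IL11 each held 1 SMAD match, that of IL11 also 1 AP-1 match, and those of IL1RL1 and IL1RN held neither.
IL6, chr4:5894576-5894825, minus strand: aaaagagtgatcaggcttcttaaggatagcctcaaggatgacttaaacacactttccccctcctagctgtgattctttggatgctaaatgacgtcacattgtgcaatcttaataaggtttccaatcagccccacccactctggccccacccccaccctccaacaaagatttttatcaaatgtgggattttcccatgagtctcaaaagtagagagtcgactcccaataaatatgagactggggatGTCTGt
IL11, chr1:78098372-78098621, plus strand: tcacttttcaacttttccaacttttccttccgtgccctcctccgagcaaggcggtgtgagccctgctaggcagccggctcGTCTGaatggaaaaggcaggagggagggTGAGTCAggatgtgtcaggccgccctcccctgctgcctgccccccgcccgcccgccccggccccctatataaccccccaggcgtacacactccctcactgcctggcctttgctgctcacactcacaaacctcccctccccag
IL1RL1, chr9:50203388-50203637, plus strand: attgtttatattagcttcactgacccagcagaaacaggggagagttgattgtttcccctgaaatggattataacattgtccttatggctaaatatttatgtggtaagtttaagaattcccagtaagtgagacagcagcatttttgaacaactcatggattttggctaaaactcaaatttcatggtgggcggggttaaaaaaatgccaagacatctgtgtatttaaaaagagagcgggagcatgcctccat
IL1RN, chr3:27520072-27520321, plus strand: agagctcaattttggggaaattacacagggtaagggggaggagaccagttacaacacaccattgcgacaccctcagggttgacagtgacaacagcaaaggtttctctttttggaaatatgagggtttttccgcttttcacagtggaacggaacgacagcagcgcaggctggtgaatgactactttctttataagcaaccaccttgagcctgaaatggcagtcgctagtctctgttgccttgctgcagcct
The AP-1 letters were in 6.34% of 33469 promoters of that length and in 6 of the 63 members with a promoter in the table. The SMAD letters were in 42.9% of all promoters and in 32 of the 63. A match describes letters in this window only.

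**Figure D4:**
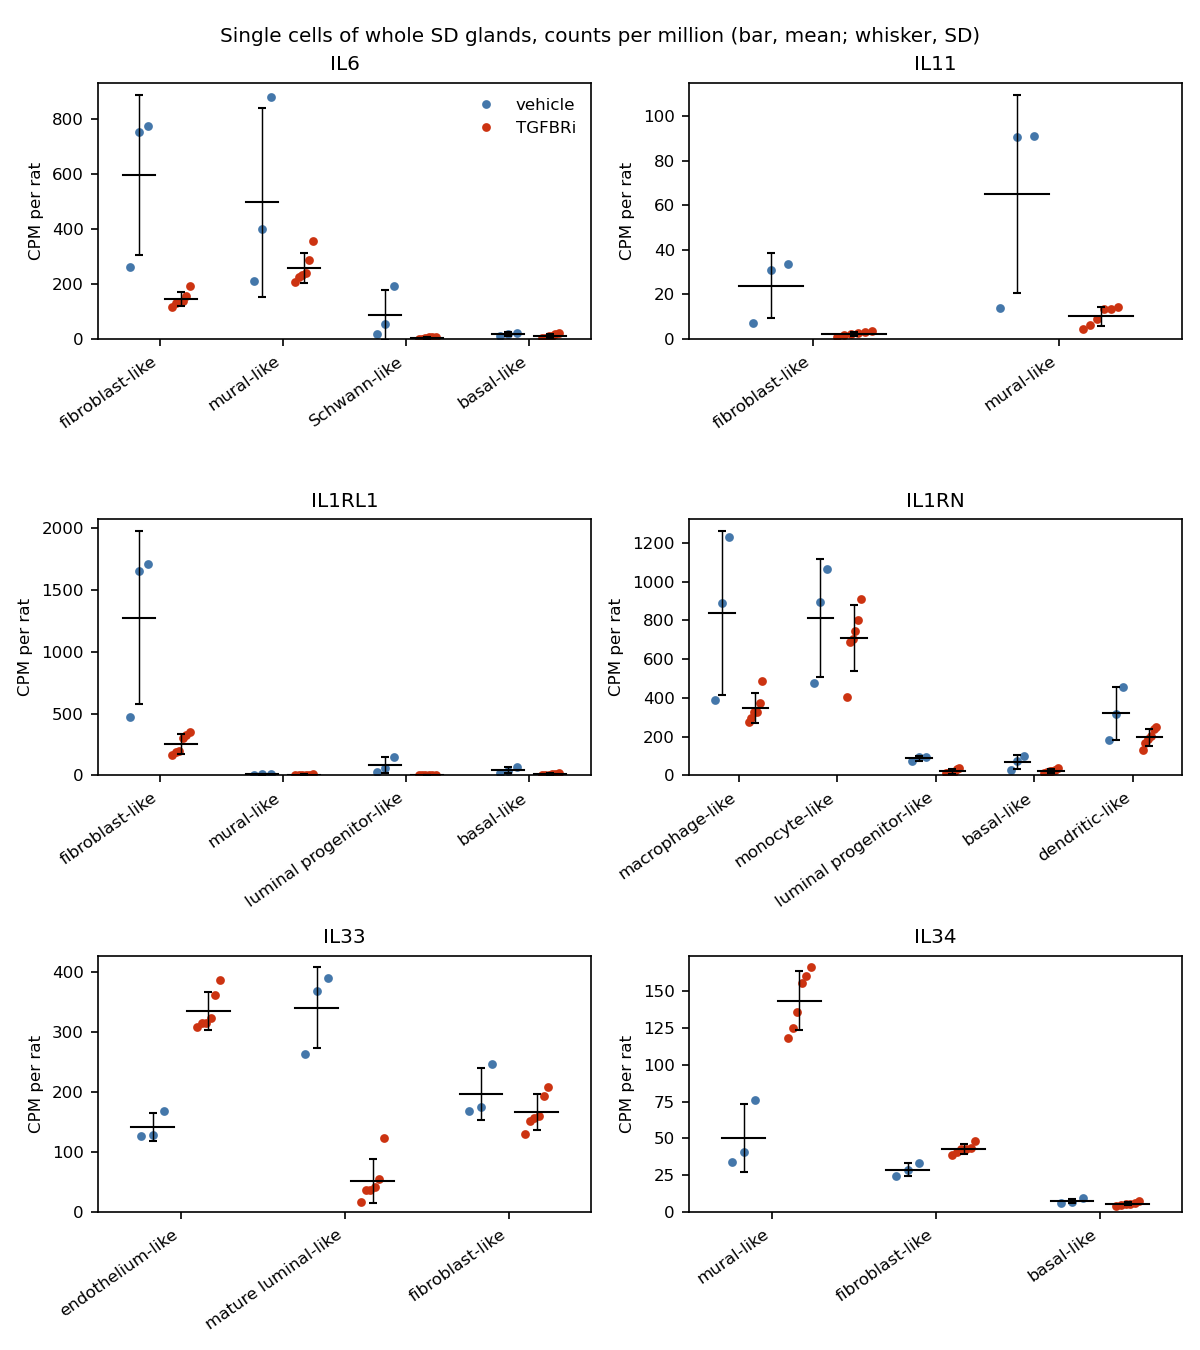
CPM of 6 members in the named cell classes of whole glands (vertical axes), 1 point per rat, for 3 vehicle and 6 TGFBRi rats, with bars for the mean and SD. In fibroblast-like cells the TGFBRi rats lie at 116 to 191 CPM for IL6 and at 163 to 355 for IL1RL1, below all vehicle rats, while IL33 is higher with TGFBRi in endothelium-like and lower in mature luminal-like cells.

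Mural-like cells, the contractile cells around vessels, had 15 of 44 members called (7 higher, 8 lower), against 30.1% of all genes. IL11 was at 90.7, 90.99 and 13.8 CPM with vehicle and 4.36, 11.2 and 14.2 with TGFBRi (−2.82 ± 0.59, edgeR adjusted p = 0.011). The fall thus rested on vehicle rats 1 and 2, with vehicle rat 4 inside the treated range. IL34 moved the other way, from 33.97, 40.5 and 76.4 CPM to 118, 146 and 166, without overlap (1.27 ± 0.23, edgeR adjusted p = 0.00168). IL6 was at 399, 877 and 209 CPM against 205, 237 and 357 (−1.15 ± 0.39, edgeR adjusted p = 0.0672, and −1.51 without vehicle rat 4), a call lost without TMM scaling. IL4R was at 103.98, 67.1 and 51.6 CPM against 122, 169 and 207 (0.96 ± 0.20, edgeR adjusted p = 0.00289), and IL6R at 15.7, 13.4 and 16.7 against 25.7, 30.4 and 56.8 (1.02 ± 0.26, edgeR adjusted p = 0.0115). Both receptors were higher in every treated rat than in any vehicle rat. IL1B was called lower (−3.13) at 1.24, 1.34 and 9.24 CPM with vehicle, and without vehicle rat 4 it was not called (edgeR adjusted p = 0.25). IL17B (2.32) and IL17RE (1.66) were called higher, and IL1RN (−2.19), IL23A (−2.07) and IL1RL1 (−1.70) lower, all with vehicle levels under 16 CPM. In Schwann-like cells 2 of 26 members were called, against 10.3% of all genes. IL6 was at 17.2, 191 and 54.2 CPM there against 0, 4.99 and 8.08 (−4.31 ± 0.99, edgeR adjusted p = 0.0465, 0.063 without vehicle rat 4), and IL1R1 was lower at 5.16, 7.36 and 4.43 CPM against 0, 0 and 2.98.

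Endothelium-like cells had 10 of 44 members called (5 higher, 5 lower), against 31.5% of all genes. IL33, which endothelium stores in the nucleus, rose from 129, 127 and 169 CPM to 309, 320 and 387, with no overlap (1.03 ± 0.14, edgeR adjusted p = 0.000161). IL10RB, a chain of the IL10 and IL22 receptors, was at 32.6, 36.02 and 31.8 CPM against 16.8, 18.3 and 25.3 (−1.01 ± 0.15, edgeR adjusted p = 0.000344). IL6R (0.82), IL11RA1 (0.56), IL1R1 (0.35) and IL13RA2 (1.37) were called higher, the last 2 not without vehicle rat 4, and IL15RA (−1.08) and IL2RG (−0.38) lower. IL1RL1 and IL1RN were also called lower here, at 3.44, 4.24 and 1.72 CPM and 3.07, 4.24 and 0.627 CPM with vehicle, levels far under those of the fibroblast-like and macrophage-like cells of the same libraries. B cell-like cells showed the same, with IL6 at 3.79, 5.39 and 2.91 CPM against 0.346, 0.534 and 0.917, and IL1RN (−2.45) and IL1RL1 (−2.34) lower. RNA shared between droplets can carry counts from the cells with the highest level, and its part in these low counts was not tested. In lymphatic endothelium-like cells (36 to 211 per rat) 3 of 28 members were called, against 15.6% of all genes: IL15RA (−3.73), IL10RB (−1.44) and IL18 (0.93).

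In the epithelium IL1RN, the IL-1 antagonist, fell in all 3 classes, and IL1RL1 in luminal progenitor-like and basal-like cells. In sorted SD luminal cells, by contrast, IL1RL1 was called higher (1.94) with every rat under 2 CPM, and IL1RN was not called, at 27.9, 33.2 and 13.9 CPM with vehicle and 5.78 to 50.4 with TGFBRi (0.08, edgeR adjusted p = 0.943). Luminal progenitor-like cells had 12 of 51 members called (4 higher, 8 lower), against 33.6% of all genes. IL1RL1 was at 61.8, 153 and 28.9 CPM with vehicle and 0.163, 1.34 and 5.39 with TGFBRi, the largest fold among the epithelial calls (−5.77 ± 0.69, edgeR adjusted p = 0.000861). IL1RN was at 93.1, 96.2 and 75.2 CPM against 11.5, 16.6 and 38.2 (−2.23 ± 0.34, edgeR adjusted p = 0.00123). In mature luminal-like cells of the same vehicle libraries IL1RL1 was at 0.521, 0.842 and 1.16 CPM, and IL1RN in fibroblast-like cells at 2.21, 1.3011 and 2.04. The part of RNA shared between droplets in the epithelial levels was not tested. The IL18 receptor chains moved with them, IL18R1 from 5.36, 11.7 and 5.30 CPM to 1.63, 2.24 and 3.15 (−1.84 ± 0.31, edgeR adjusted p = 0.000962) and IL18RAP from 3.501, 4.42 and 3.37 to 0, 0.3 and 1.24 (−3.51 ± 0.51, edgeR adjusted p = 0.000381). None of these 4 overlapped between arms. IL18 itself was called higher, at 4.17, 3.95 and 2.89 CPM against 5.94, 7.51 and 13.04 (1.06 ± 0.32, edgeR adjusted p = 0.0245). IL11RA1, the IL11 receptor, rose from 4.99, 5.37 and 8.67 CPM to 13.2, 17.04 and 20.51 (1.38 ± 0.21, edgeR adjusted p = 0.000593). IL6ST fell from 60.1, 54.96 and 59.3 CPM to 28.7, 35.02 and 54.4 (−0.76 ± 0.16, edgeR adjusted p = 0.00383), and IL11 (−2.10), IL15RA (−0.90) and IL17RA (−0.75) were also lower.

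Mature luminal-like cells, the hormone-sensing layer, had 9 of 43 members called, 8 of them lower, against 27.7% of all genes. The median log2 fold change was −0.36 over the members and 0.03 over all genes. IL1RN was at 81.3, 73.6 and 86.3 CPM with vehicle and 5.74, 9.98 and 16.98 with TGFBRi (−2.93 ± 0.27, edgeR adjusted p = 5.66e-05). IL33 was at 264, 368 and 390 CPM against 17.4, 39.5 and 123 (−2.82 ± 0.49, edgeR adjusted p = 0.0064). Both stood below every vehicle rat in all 6 treated rats, and 1 treated rat, at 123 CPM of IL33, lay far above the other 5. IL10RB was at 23.3, 37.9 and 40.9 CPM against 12.7, 15.7 and 20.8 (−1.14 ± 0.18, edgeR adjusted p = 0.000818), and IL17RE at 11.9, 30.3 and 28.5 against 9.62, 11.9 and 15.6 (−0.98 ± 0.25, edgeR adjusted p = 0.0166). IL11RA1 was the member called higher, at 8.21, 8.71 and 7.18 CPM against 12.7, 15.2 and 20.8 (0.90 ± 0.19, edgeR adjusted p = 0.00599). IL6ST (−0.67), IL13RA1 (−0.36), IL34 (−2.24) and IL6 (−2.09) made up the rest, and without vehicle rat 4 only IL6ST of these 4 was called.

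Basal-like cells had 19 of 56 members called (9 higher, 10 lower), the class in which most genes of any kind moved (45.6%). IL17B, the ligand that marks these cells, was at 122, 48.1 and 197 CPM with vehicle and 178, 706 and 1629 with TGFBRi (2.90 ± 0.85, edgeR adjusted p = 0.0272). The lowest treated rat lay inside the vehicle range. The basal-like class joined clusters 8, 9 and 41, and the arms filled the first 2 differently. Cluster 8 held 56.5% to 89.3% of it in vehicle and 3.2% to 5.18% in TGFBRi rats, and cluster 9 5.07% to 33.6% and 82.6% to 92.3%. Cluster 41, with few UMIs, held 3.17% to 13.6% and 4.53% to 12.2%. Within cluster 9, IL17B stood at 287, 90.7 and 263 CPM with vehicle and 181 to 1664.4 with TGFBRi, and within cluster 8 at 111, 46.2 and 171 and at 138 to 1270.8. IL1RN was at 73.6, 100.48 and 30.5 CPM against 14.2, 20.9 and 41.1 (−1.49 ± 0.37, edgeR adjusted p = 0.00983), and IL1RL1 at 22.9, 70.04 and 36.4 against 1.53, 7.72 and 22.3 (−2.15 ± 0.64, edgeR adjusted p = 0.0279). IL23A was higher, at 3.54, 1.75 and 7.86 CPM against 6.12, 15.5 and 24.8 (2.17 ± 0.54, edgeR adjusted p = 0.0101). IL6R rose from 69.3, 55.2 and 51.1 CPM to 84.3, 102.96 and 140.1 and IL17RA fell from 78.9, 75.3 and 78.3 to 32.2, 44.04 and 50.2, both without overlap (0.92 ± 0.20 and −0.79 ± 0.15). At lower levels IL20 (2.14), IL17RB (1.24), IL17RD (1.19) and IL11RA1 (1.09) were higher and IL12B (−2.90), IL1A (−2.44), IL24 (−1.93) and IL1R1 (−1.13) lower.

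The immune classes had between 2 and 11 members called each. Median UMIs per cell did not overlap between arms in the lymphoid classes. They stood at 1877 to 2115 with vehicle and 2352 to 3340.5 with TGFBRi in B cell-like cells. T cell-like cells had 2045.5 to 2239 and 2603 to 3758, and NK-like cells 2288 to 2779.5 and 3095 to 4118. The part of this depth in the calls was not tested. In B cell-like cells 11 of 43 members were called (4 higher, 7 lower), against 17.4% of all genes. IL2RG, the common gamma chain, fell from 1014, 1099 and 1098 CPM to 604, 653 and 701, without overlap (−0.77 ± 0.08, edgeR adjusted p = 8.81e-05), and IL2RA from 21.99, 26.5 and 12.6 to 7.04, 9.97 and 11.04 (−1.25 ± 0.18, edgeR adjusted p = 0.000681). The arms filled the B cell clusters differently: cluster 6 held 2.96% to 12.1% of the class in vehicle and 16.9% to 35.8% in TGFBRi rats. Within clusters 5 and 7 IL2RG stood at 990.4 to 1101.6 and 1061.5 to 1193.9 CPM with vehicle and 613 to 755 and 649 to 722 with TGFBRi, without overlap, and within cluster 6 at 614 to 867 and 526.3 to 643. IL7R (−1.27) was lower and IL27RA (0.85) and IL21R (0.39) higher, and IL15 was at 0 in all vehicle rats and at 0.135 to 0.579 CPM with TGFBRi. IL15 thus passed the count filter only through the treated rats, and nothing is read from its call. In T cell-like cells 4 of 47 members were called, against 8.03% of all genes. IL7R, the receptor naive T cells need, fell from 114, 111 and 96.1 CPM to 60.9, 76.9 and 82.1 (−0.53 ± 0.11, edgeR adjusted p = 0.0158). IL21R rose from 290.3, 326 and 224 CPM to 363, 425 and 483 (0.60 ± 0.11, edgeR adjusted p = 0.00464), and IL27RA was higher too (0.45). The class joined cluster 1 (63.4% to 81.3% in vehicle, 44.4% to 76.9% in TGFBRi rats) and cluster 12 (18.7% to 36.6% and 23.1% to 55.6%). IL7R was at 96.6 to 123 CPM with vehicle and 59.8 to 89.4 with TGFBRi within cluster 1, and at 84.2 to 116 and 44.4 to 80.03 within cluster 12. IL21R was at 216 to 281 and 325 to 459 within cluster 1 and at 252 to 381 and 419 to 525 within cluster 12, so neither gene overlapped within a cluster. IL21, the ligand of IL21R, was at 0 in all vehicle T cell-like cells and at 0.444, 1.25 and 2.30 CPM with TGFBRi. It passed the count filter only through the treated rats, and nothing is read from its call. In NK-like cells 4 of 34 members were called, against 3.79%. IL21R rose from 214, 236 and 139 CPM to 310.2, 361 and 412 (0.83 ± 0.14, edgeR adjusted p = 0.000902) and IL4R from 241, 256 and 179 to 310.0, 325 and 344 (0.50 ± 0.13, edgeR adjusted p = 0.0323). IL17RA was lower (−0.69), and IL10 was lower on 33.3 CPM in vehicle rat 4, without which it could not be tested.

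The myeloid classes showed small sets. Median UMIs per cell stood at 1840.5 to 2352 with vehicle and 2712.5 to 4174.5 with TGFBRi in monocyte-like cells, without overlap. In macrophage-like cells they stood at 3154.5 to 4637.5 and 1470 to 3409.5, overlapping. The part of this depth in the calls was not tested. In dendritic-like cells 6 of 41 members were called (2 higher, 4 lower), against 6.15% of all genes. IL7R was at 168, 237 and 69.9 CPM against 48.3, 66.95 and 82.2 (−1.45 ± 0.26, edgeR adjusted p = 0.0115), IL6R at 42.8, 45.8 and 67.7 against 106.15, 131 and 145 (1.01 ± 0.21, edgeR adjusted p = 0.0203), and IL1RN at 459, 317 and 185 against 134, 198 and 252 (−0.90 ± 0.21, edgeR adjusted p = 0.03). Only IL6R of these 3 had arms that did not overlap. IL2RA (−2.14), IL18 (−0.84) and IL16 (1.36) were also called. In monocyte-like cells (at most 296 per rat) 6 of 35 were called, against 7.62%. IL1B rose from 2098, 3121 and 2615 CPM to 3319.9, 4052 and 4530.4 (0.45 ± 0.13, edgeR adjusted p = 0.0582), and IL7R fell from 102.72, 81.9 and 19.3 to 3.86, 16.4 and 23.2 (−2.26 ± 0.48, edgeR adjusted p = 0.0241). IL21R (1.01) and IL6R (0.64) were higher and IL17RA (−0.59) lower, and IL1RL1 was at 42.4, 1.95 and 12.4 CPM with vehicle and 0 in all treated rats, a call lost without vehicle rat 4 (edgeR adjusted p = 0.35). IL1RL1 thus passed the count filter only through the vehicle rats, and nothing is read from its call. In macrophage-like cells 2 of 42 were called, against 4.02%. IL1RN was at 891, 1232 and 389 CPM against 275, 328 and 487, overlapping through vehicle rat 4 (−1.51 ± 0.29, edgeR adjusted p = 0.0242), and IL33 at 46.5, 22.4 and 13.3 against 2.84, 7.06 and 8.48 (−2.28 ± 0.36, edgeR adjusted p = 0.00577). The class joined clusters 31 and 39, in shares that varied between rats and overlapped between arms. Cluster 39 held 28.3% to 92% of the class in vehicle and 25% to 59.5% in TGFBRi rats. The part of this mix in the lower IL1RN and IL33 was not tested.

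Set side by side over classes, IL1RN was lower in 8 of the 13 classes in which it was tested and IL1RL1 in 7 of 13, with no class higher. The IL1RL1 count includes monocyte-like cells, from which nothing is read. In endothelium-like, mural-like and B cell-like cells both genes were at low levels, and the part of RNA shared between droplets was not tested. IL17RA was lower in 6 of 14, IL6 in 5 of 14, IL15RA in 5 of 13, and IL7R in 4 of 13. IL6R was higher in 6 of 14, IL11RA1 in 5 of 13, IL21R in 4 of 14 and IL4R in 3 of 14. IL6ST, the chain that IL6R and IL11RA1 work with, was lower in 4 of 14. IL33 was higher in endothelium-like cells and lower in 3 other classes. Without vehicle rat 4 the calls held in 6 classes for IL1RL1, in 4 each for IL17RA, IL6 and IL11RA1 and in 2 for IL4R, and the other counts of this paragraph stood. The classes share the same 9 rats, so these counts are not separate experiments. The IL6 call in mural-like cells was lost without TMM scaling. Sorted epithelial cells differed in part. IL17RA (ACI basal), IL15RA (SD basal), IL1RN (ACI luminal) and IL1RL1 (SD luminal) were called higher there. IL4R (ACI basal), IL6 (SD basal), IL33 (ACI luminal) and IL6ST (luminal of both strains) were called in the directions given here.

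Several lower members sit together on rat chromosome 9, in the order MAP4K4, IL1R2, H3F3AL3, IL1R1, IL1RL2, IL1RL1, IL18R1, IL18RAP and, past them, SLC9A4, SLC9A2 and MFSD9. In fibroblast-like cells 5 neighbouring members were called lower, with log2 fold changes of −1.65 for IL1R1, −1.40 for IL1RL2, −2.50 for IL1RL1, −0.52 for IL18R1 and −2.78 for IL18RAP. These are the same calls as those counted for the IL-1 family above, in a class with 31% of all genes called. IL1R2, the decoy at the edge, did not pass (−0.18, edgeR adjusted p = 0.808), MAP4K4 was lower (−0.78, edgeR adjusted p = 0.019) and MFSD9 did not pass (0.71, edgeR adjusted p = 0.555). In luminal progenitor-like cells IL1RL1, IL18R1 and IL18RAP were lower while IL1R1 did not pass (0.14, edgeR adjusted p = 0.812) and MFSD9 was higher (1.45, edgeR adjusted p = 0.0298). In endothelium-like cells IL1RL1 was lower and IL1R1 higher, the latter not without vehicle rat 4.

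The signalling genes of these receptors were read from a list of 38 genes (JAK kinases, STAT factors, SOCS feedback inhibitors, MYD88 and IRAK adaptors, NF-κB genes and related cytokines). In fibroblast-like cells 19 of 37 tested passed (8 higher, 11 lower, with 31% of all genes called), in basal-like cells 21 of 37 (16 higher, 5 lower, with 45.6% of all genes called) and in mature luminal-like cells 14 of 35 (2 higher, 12 lower, with 27.7%). EBI3, a subunit of IL27 and IL35, was lower in 12 of the 14 classes, such as endothelium-like (−2.68), mural-like (−2.21) and B cell-like cells (−1.59). LIF, an IL6-family cytokine, was lower in 5 classes, with −2.71 in fibroblast-like and −3.23 in mural-like cells. IRAK2, an IL-1 receptor kinase, was lower in 7 classes and the NF-κB inhibitor NFKBIA in 6. SOCS3, which is induced by and then inhibits IL6ST signalling, was higher in 6 classes, T cell-like (1.61) and basal-like (1.41) among them. It was lower in every sorted epithelial set described below.

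Sorted epithelial single cells had 29 calls over 4 sets. These cells were kept by the authors only without PTPRC and with keratin reads. In ACI basal cells 8 of 41 members were called (5 higher, 3 lower), against 33% of all genes. IL13RA1, an IL4 and IL13 receptor chain, rose from 52.02, 44.1 and 50.2 CPM to 70.6, 63.5 and 81.8 (0.79 ± 0.12, edgeR adjusted p = 0.000696). IL17RA was higher, at 19.4, 17.8 and 21.8 CPM against 25.7, 27.3 and 29.2 (0.70 ± 0.12, edgeR adjusted p = 0.00116), and IL23A at 8.91, 8.29 and 6.3999 against 11.03, 11.6 and 16.2 (0.91 ± 0.19, edgeR adjusted p = 0.00442). None of the 3 overlapped. IL4R (0.48) and IL18 (0.88) were also higher, and IL1R1 (−0.75), IL17RB (−0.59) and IL7 (−0.55) lower. In SD basal cells 5 of 47 members were called, against 24.7%. IL6 fell from 112, 85.3 and 143 CPM to 17.3, 28.3 and 59.999 (lowest, median, highest of 6), without overlap (−1.33 ± 0.38, edgeR adjusted p = 0.0442). IL6 in ACI basal cells was at a mean of 93.2 CPM with vehicle and 29.2 with TGFBRi and did not pass (−1.44, edgeR adjusted p = 0.127). IL15RA (2.32), IL18BP (0.91) and IL3RA (0.82) were called higher and IL18R1 (−1.67) lower, all with levels under 10 CPM. All cells of a basal sort were summed per rat. The paper reports among them, in both strains, a rare secretory basal population enriched with TGFBRi. Its part in the basal calls was not tested. IL17B was not called in sorted basal cells of either strain, with means of 527 and 501 CPM in ACI and 635 and 287 in SD rats, vehicle first.

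In ACI luminal cells 8 of 39 members were called (4 higher, 4 lower), against 25% of all genes. IL33 was at 507, 626 and 395 CPM with vehicle and 274, 296 and 273 with TGFBRi (−0.58 ± 0.16, edgeR adjusted p = 0.0399). IL18R1 was at 7.63, 9.54 and 7.76 CPM against 3.52, 3.84 and 3.58 (−0.90 ± 0.19, edgeR adjusted p = 0.0124), and IL10RB at 14.2, 12.5 and 13.9 against 8.24, 8.26 and 5.76 (−0.59 ± 0.15, edgeR adjusted p = 0.03). These 3 had arms without overlap. IL1RN, lower in whole glands, was higher here, at 3.00, 2.39 and 1.27 CPM against 3.95, 3.71 and 6.29 (1.34 ± 0.34, edgeR adjusted p = 0.0284), at levels far under those of the whole-gland luminal classes. IL17RB (1.16), IL18BP (0.72) and IL17D (0.64) were higher and IL6ST (−0.39) lower. In SD luminal cells 8 of 42 were called (5 higher, 3 lower), against 31.8%. IL1R1 was at 7.00, 8.10 and 8.66 CPM against 0.38, 1.15 and 4.50 (−1.64 ± 0.62, edgeR adjusted p = 0.0791), IL1RAP at 8.88, 11.3 and 6.45 against 1.49, 1.70 and 5.62 (−1.32 ± 0.44, edgeR adjusted p = 0.0565), and IL6ST at 69.6, 64.2 and 56.1 against 17.9, 28.4 and 46.6 (−0.71 ± 0.29, edgeR adjusted p = 0.0945). Every treated rat lay below every vehicle rat for these 3. IL2RB (3.77), IL1RL1 (1.94) and IL22RA1 (1.87) were called higher with every rat under 2 CPM, and IL17RE (0.73) and IL17D (0.62) higher at 4.62 to 28.7 CPM. SOCS3 was lower in all 4 sorted sets, from −1.07 in ACI luminal to −2.12 in SD basal cells. NFKBIA was higher in luminal cells of both strains (0.60 in ACI, 0.62 in SD), IRAK2 in ACI luminal cells (0.58) and EBI3 in SD luminal cells (1.40), and LIF was higher in ACI basal (1.00) and lower in SD luminal cells (−1.82). The 29 calls over the 4 sorted sets became 16 without SD vehicle rat 1 or 3, 19 without SD vehicle rat 2 and 19 without SD TGFBRi rat 11. TMM scaling moved the members by 0.22 to 0.385 on the log2 scale in the sorted sets and by −0.242 to 0.0524 in whole glands, and turned no called direction. Without it 27 single-cell calls were lost and 126 held. In sorted cells the lost ones were higher calls (IL4R and IL18 in ACI basal, IL17D and IL17RB in ACI luminal, IL15RA, IL18BP and IL3RA in SD basal, and IL1RL1, IL17RE, IL17D and IL22RA1 in SD luminal cells), and in whole glands they included IL6 in mural-like, IL18R1 in fibroblast-like and IL1RN, IL18 and IL2RA in dendritic-like cells.

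In bulk cells of young ACI rats few members passed at any day. Values are normalized read counts, tested on log2(value + 1), which understates changes of low genes, and fewer cells of a type cannot be told apart from less RNA per cell. At day 0, 1 of 71 members was called in basal cells (3.34% of all genes), 0 of 69 in luminal cells (1.01%) and 2 of 68 in CD45+ cells (2.85%). IL31RA, the IL31 receptor, was higher in basal cells, at 9.43, 52.98 and 4.62 with vehicle and 562, 171 and 233 with TGFBRi (4.27 ± 1.02, limma adjusted p = 0.0372). No rat overlapped, but edgeR did not call it (adjusted p = 0.116) and leaving out a rat kept the call in 2 of 6 fits. Other lists moved in these samples: summed macrophage markers stood at 144 to 250 with vehicle and 554 to 1344 with TGFBRi, Schwann markers at 6602 to 11770 and 20560 to 32560, and basal markers at 146800 to 219800 and 50630 to 101100. Of the TGFBRi basal libraries 2 were also shallower than any vehicle library, at 6562769, 4194912 and 15136358 reads against 18200891, 18781674 and 12382292. They detected 15058, 15297 and 14020 genes against 13484, 12612 and 14603, and the luminal libraries of the same rats 15060, 15143 and 12976 against 13296, 12100 and 12096. In whole glands IL31RA was highest in fibroblast-like cells (21.2 CPM), and the part of fibroblasts in its call was not tested. Over all members the median log2 fold change was 1.21 in basal cells against 0.3 over all genes. The part of these markers, depths and numbers of genes in it was not tested.

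In CD45+ cells at day 0, IL17B was at 55.5, 53.8 and 20.6 with vehicle and 0, 0 and 2.21 with TGFBRi (limma adjusted p = 0.00801, edgeR adjusted p = 0.0225), and leaving out any rat kept the call. IL33 was at 869, 1143 and 2038 against 341, 504 and 328 (−1.72 ± 0.44, limma adjusted p = 0.0468), and was called in 1 of the 6. Neither gene overlapped between arms. The basal marker list stood at 3492 to 12760 in the vehicle and 113 to 204 in the TGFBRi samples (TP63 at 0), the fibroblast list at 369100 to 741400 and 23910 to 150500 (COL1A2 at 0) and the neutrophil list at 648 to 2511 and 9761 to 46920. IL17B and IL33 are genes of basal and stromal or luminal cells in the whole glands, and the part of these markers was not tested. Over the 3 fractions the 3 calls became 28 without the TGFBRi rat that is replicate 3 of basal and luminal cells, 1 without the TGFBRi rat that is replicate 2 of them, and 5 without vehicle rat 1. In luminal cells at day 0, limma called 0 of 69, with 22 at an unadjusted p under 0.05, edgeR 0 and DESeq2 4. IL33 was at 3606, 3724 and 3866 with vehicle and 865, 1799 and 1357 with TGFBRi, without overlap (−1.54, limma adjusted p = 0.153), IL1RL1 at a mean of 22.7 and 88.1 (3.00, limma adjusted p = 0.117), and IL22RA2 at 16.1 and 75.3 (limma adjusted p = 0.142). In basal cells IL17B was at 2757, 1353 and 1690 against 443, 147 and 546 (−2.49, limma adjusted p = 0.144), IL1RL1 differed by 1.96 (limma adjusted p = 0.0705) and IL6 by −0.13 (limma adjusted p = 0.918).

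**Figure D5:**
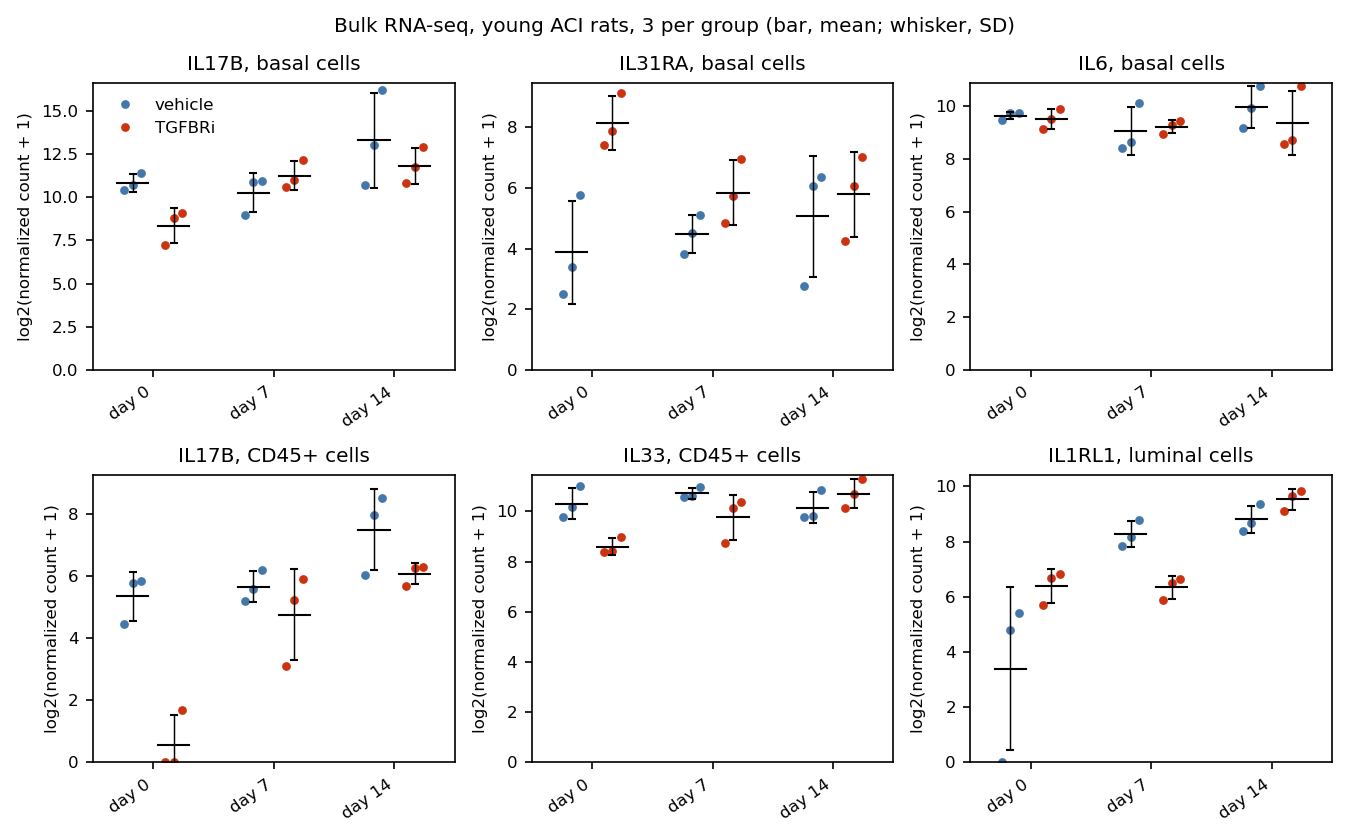
Log2(normalized count + 1) of IL17B, IL31RA and IL6 in basal, IL17B and IL33 in CD45+ and IL1RL1 in luminal cells of young ACI rats (vertical axes) at 0, 7 and 14 days after dosing, 1 point per rat with bars for the mean and SD of 3 rats per arm. The arms of IL31RA in basal and IL17B in CD45+ cells stand apart at day 0 and overlap at days 7 and 14.

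At days 7 and 14 no member was called in any fraction. The title of 1 of the 3 TGFBRi CD45+ samples of day 7 gives another day than its day label, which was followed, and no member was called without that rat either. The background was 0.00639% in basal, 0% in luminal and 0% in CD45+ cells at day 7 and 0% in all 3 fractions at day 14. Over the 416 member tests, limma found 19 at an unadjusted p under 0.05, edgeR called 0 and DESeq2 1. At day 7 luminal cells had means of 266 and 9.68 for IL1R2 (limma adjusted p = 0.26) and 388 and 106.85 for IL1A, vehicle first. At day 14 IL17RC in luminal cells stood at 906 and 566 (limma adjusted p = 0.486), IL33 in the same cells at 3412.8 and 9265.1, and IL3RA in CD45+ cells at 514 and 988. The difference of the treatment effect between day 0 and a later day, tested directly with limma, gave 0 calls over 416 member tests, with 56 at an unadjusted p under 0.05, 0 by edgeR and 10 by DESeq2. Its background was 0%, 0% and 0.0135% (basal, luminal, CD45+) for day 0 against day 7 and 0.00639%, 0.00659% and 0.19% for day 0 against day 14. Without the first of the TGFBRi rats just named, or without day 0 vehicle rat 1, it gave 5 calls. So the loss of the day 0 differences at later days was not shown by a test. IL17B in vehicle basal cells at day 14 spread from 1687 to 75649.

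In vehicle rats alone, luminal IL1RL1 was higher at the later days. It stood at 26.6, 41.5 and 0 at day 0, 229, 289 and 443 at day 7 (4.87 ± 0.94, limma adjusted p = 0.0268) and 338, 658 and 407 at day 14 (5.41 ± 0.94, limma adjusted p = 0.0212). Each day was sampled in other rats, and age cannot be told apart from the day of processing. IL23A fell from 9970, 10485 and 9455 at day 0 to 1262, 1313 and 741 at day 14 (−3.22 ± 0.62, limma adjusted p = 0.0334), a call lost whichever rat was left out. At day 7 it was spread from 1020.1 to 7092. These were the 3 calls of 416 tests, and edgeR also made 3 and DESeq2 20. Without day 7 vehicle rat 3 the day 7 difference of IL1RL1 was 4.92 and was not called. The background in luminal cells was 0.685% at day 7 and 0.389% at day 14. It was 0.192% and 0.0384% in basal and 0% and 0.129% in CD45+ cells, with no member called. Without day 0 vehicle rat 1, 13 were called, and without day 14 vehicle rat 1, 2 or 3 the count was 1 each time.

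Young SD rats at day 0 gave no call in any fraction, and the background was 0% in basal, 0% in luminal and 0% in CD45+ cells. Of 170 member tests limma found 9 at an unadjusted p under 0.05, and edgeR and DESeq2 called 0. IL6ST in basal cells was at a mean of 4972.9 with vehicle and 6524 with TGFBRi, luminal IL1A at 331 and 632, and CD45+ IL3RA at 787 and 404. IL33 in luminal cells differed by −0.03 on the log2 scale.

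Adult glands asked whether age and parity change the response. In virgin basal cells 1 of 54 members was called, against 8.73% of all genes, and the median over members was −0.75 against −0.25 over all genes. The member was IL1RL2, the IL36 receptor, at 30.0, 7.50, 33.9 and 12.1 with vehicle and 0.652, 10.4, 0 and 0 with TGFBRi (−3.16 ± 0.89, limma adjusted p = 0.0359). A single treated rat overlapped with the vehicle rats, and edgeR did not call the gene (adjusted p = 0.16). The TGFBRi libraries of these cells detected 10151 to 11434 genes and the vehicle libraries 12123 to 12561, and the part of this difference was not tested. In parous basal cells (0.00744%), virgin and parous luminal cells (0% and 0.0281%) and virgin and parous CD45+ cells (0.022% and 0%) no member was called. Over the 6 adult comparisons (360 tests) 27 had an unadjusted p under 0.05, edgeR called 1 and DESeq2 5. Among members with a mean of 50 or more in an arm, IL3RA in luminal cells had the smallest p of both virgin and parous rats, at a mean of 522 with vehicle and 286 with TGFBRi in virgin and 520.4 and 295 in parous rats (limma adjusted p = 0.659 and 0.318). IL33 in luminal cells differed by 0.37 and 0.34. The single adult call became 2 without virgin vehicle rat 2 or virgin TGFBRi rat 1 or 2, and 0 without virgin vehicle rat 3 or 4 or virgin TGFBRi rat 3. Parity itself was tested in vehicle rats. No member of 180 tests was called by limma or edgeR, 12 had an unadjusted p under 0.05 and DESeq2 called 1, with a background of 0% in basal, 0% in luminal and 0% in CD45+ cells. The difference of the TGFBRi effect between virgin and parous rats was called for no member, against 1.04% of all genes in basal, 0% in luminal and 0% in CD45+ cells.

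In glands of NMU rats no member was called, over 372 tests with 43 at an unadjusted p under 0.05, 0 calls by edgeR and 9 by DESeq2. The background for TGFBRi tumor-free against vehicle rats was 0% in basal, 0.948% in luminal and 0% in CD45+ cells, and for TGFBRi tumor-bearing against vehicle rats 1.31%, 0.212% and 0.015%. Luminal IL33 was at 3839, 3920.2 and 4201 in vehicle rats, 781, 2688 and 1010 in TGFBRi tumor-free (−1.63, limma adjusted p = 0.0775) and 1034, 1059 and 1298 in TGFBRi tumor-bearing rats (−1.82, limma adjusted p = 0.0642). No treated rat reached the vehicle range, but the test was not passed. Without vehicle rat 3, 11 members were called over the 6 gland comparisons, and without TGFBRi tumor-bearing rat 1, 1. In luminal cells IL4R, the IL4 receptor, was at a mean of 1889.8 in vehicle tumor-bearing and 5359 in TGFBRi tumor-free rats (limma adjusted p = 0.0766). IL18 was at 481 and 149 in the same groups (limma adjusted p = 0.082). In the tumor-bearing rats luminal IL6R was at 116 with vehicle and 386 with TGFBRi (limma adjusted p = 0.0846), basal IL11RA1 at 2699.8 and 4247 (limma adjusted p = 0.185) and basal IL11 at 75.1 and 4.97 (limma adjusted p = 0.202). CD45+ IL1RL1 was at 2688 and 1107 and CD45+ IL10 at 524 in vehicle and 1460.7 in tumor-free rats. In the tumors themselves TGFBRi gave no call among 122 tests (7 at an unadjusted p under 0.05, 0 by edgeR and DESeq2), with a background of 0% in EPCAM+ and 0% in CD45+ cells. IL4R in tumor CD45+ cells was at a mean of 11278 with vehicle and 3906 with TGFBRi (limma adjusted p = 0.625), IL2RB at 14740 and 6059 and IL23A in EPCAM+ cells at 174 and 44.8.

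Tumors differed from glands of the same vehicle rats, on log2(RPM + 0.5), with RPM for TMM-scaled reads in a total of 1000000. In CD45+ cells 10 of 56 members were called (3 higher, 7 lower), against 10.6% of all genes. IL2RB, the IL2 and IL15 receptor chain of T and NK cells, stood at 617, 1829 and 1592 RPM in tumors and 190.1, 233 and 415 in glands (2.20 ± 0.45, limma adjusted p = 0.0103). IL2RA was at 178, 440.1 and 372 against 52.1, 68.3 and 127 (2.00 ± 0.45, limma adjusted p = 0.0159) and IL27RA at 20.3, 34.7 and 36.4 against 0.568, 4.08 and 5.44 (3.29). All 3 were higher in every tumor. The lower members included genes led by stroma, with IL34 at 0, 7.89 and 3.72 against 112, 127 and 122 (−5.53 ± 0.87, limma adjusted p = 0.00228) and IL11RA1 at 19.9, 11.9 and 12.7 against 153, 207 and 102.9 (−3.31 ± 0.43, limma adjusted p = 0.000625). IL6 was at 58.98, 8.83 and 3.08 against 122, 218 and 142 (−3.64), and IL33 (−3.01), IL6ST (−2.38), IL17RC (−4.21) and IL17RA (−1.84) were lower too. The fibroblast list summed to 723 to 1665 in tumor and 12790 to 28270 in gland CD45+ samples, the T cell list to 1756 to 4923 and 978 to 1254, and the NK list to 378 to 996 and 159 to 209. The mature luminal list summed to at most 208 in tumor and 1658 to 2035 in gland samples, the luminal progenitor list to 126 to 255 and 1809 to 2322, the B cell list to 6.79 to 11.3 and 113 to 783, and the mast cell list to 342 to 3742 and 28.7 to 76.2. The mural list was at 28.01 to 52.3 in tumor and 123 to 154 in gland samples, and the basal list at 69.9 to 189 and 578 to 893. The part of these cells was not tested.

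In tumor EPCAM+ against gland luminal cells 10 of 59 members were called (9 higher, 1 lower), against 22.7% of all genes. IL1RN was the lower one, at 13.4, 11.8 and 12.2 RPM in tumors and 208, 171 and 139 in glands (−3.72 ± 0.43, limma adjusted p = 9.94e-05). It was called whichever rat was left out, as was IL2RB, at 77.1, 14.6 and 10.2 against 0.843, 0.367 and 1.19 (4.21 ± 0.72, limma adjusted p = 0.00129). IL1RL1 was at 534, 82.9 and 49.1 against 30.1, 21.8 and 18.9 (2.46 ± 0.71, limma adjusted p = 0.0233). IL16 (3.24), IL2RA (3.00), IL21R (2.85), IL34 (2.11), IL13RA2 (2.10), IL1R1 (2.03) and IL10 (1.77) were also higher, most of them genes led by immune or stromal classes in whole glands. The tumor samples held more of the fibroblast list (5194 to 64090 against 323 to 890) and of the T cell list (13.1 to 282 against 5.74 to 20.0) and the dendritic list (66.3 to 610 against 9.48 to 11.8). The mural list was at 442 to 1172 against 64.5 to 176 and the mast cell list at 15.4 to 519 against 13.8 to 38.7. They held less of the luminal progenitor list (3184 to 7382 against 17560 to 38370) and of the mature luminal list (2808 to 7209 against 12310 to 25960), and the part of these lists was not tested. Without rat 2, 6 members were called over both tumor comparisons in place of 20.

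In ACI rats of the E2 experiment TGFBRi gave no call among 381 member tests, with 33 at an unadjusted p under 0.05, 0 by edgeR and 2 by DESeq2. The background was 0.0147% in luminal and 0% in CD45+ cells without E2, 0.0147% and 0% for tumor-free and 0.00736% and 0.0223% for tumor-bearing TGFBRi rats with E2. Luminal IL6 without E2 was at a mean of 572 with vehicle and 2487.7 with TGFBRi. Leaving out a TGFBRi tumor-bearing rat with E2 leaves an arm of 1, so the calls of those fits are not read. CD45+ IL17F, an inflammatory IL17 ligand, was at 196 in vehicle rats with E2, 25.01 in TGFBRi tumor-bearing and 491 in TGFBRi tumor-free rats (limma adjusted p = 0.162 for tumor-bearing rats). Against vehicle rats without E2, vehicle rats with E2 and tumors had 2 of 61 members called in luminal cells, against 1.48% of all genes. IL2RB was at 71.7, 0, 51.3 and 17.3 without and 349, 223, 139 and 843 with E2 (4.25 ± 1.00, limma adjusted p = 0.0382, edgeR adjusted p = 0.065). IL1A was at 80.8, 109, 62.3 and 130.4 without and 158, 400.1, 498 and 1399 with E2 (2.30 ± 0.51, limma adjusted p = 0.0248). Both had no overlap. The T cell list summed to 35.8 to 265 without and 56.98 to 845 with E2 and the basal list to 2514 to 6063 and 6440 to 9838, and their part was not tested. In CD45+ cells 0 of 66 members were called, against 0.282%, with 13 at an unadjusted p under 0.05, 0 by edgeR and 3 by DESeq2. IL2RB was at a mean of 7854 without and 17635 with E2 (limma adjusted p = 0.0889), IL17A at 97.9 and 401 and IL13 at 17.1 and 145. Without single rats the 2 luminal calls became 0, 1 or 6, with 6 without vehicle no-E2 rat 4, 0 without E2 rat 2 or 3 and 1 without E2 rat 1 or 4 or vehicle no-E2 rat 3.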

How the data were processed

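Bulk libraries (SMARTer v4) were aligned by the authors with STAR 2.5.1b to rn6 and counted with HTSeq without strand, so reads of a member and an antisense gene cannot be told apart. The deposited bulk signal is each count divided by the DESeq2 1.30.1 size factor, and every value came out as whole reads (100% of values above 0). The adult and E2 tables hold 23.08% to 42.5% of reads in rows with no gene, which were left out, and the others 0%. For single cells the deposited tables hold raw UMI counts made with Cell Ranger 4.0.0 or 7.0.0. The labels also name Seurat 4.0.0 and 4.1.1. Sorted cells used 10x 3′ and whole glands 10x 5′ chemistry. The authors kept cells with up to 15% mitochondrial reads and at least 100 genes, and sorted cells with no PTPRC and at least 2 keratin reads.

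The members, gene lists and comparisons were chosen with earlier results of these data known. Bulk tables were tested per fraction with limma 3.58.1 (trend, robust) on log2(value + 1) for genes summing to at least 10, called at 0.05 or less after Benjamini-Hochberg adjustment over all genes. Tumor against gland used log2(RPM + 0.5) after TMM scaling. Single-cell counts were summed per rat and class and tested with edgeR 4.0.16 (quasi-likelihood, TMM, at least 10 counts, rats with at least 10 cells), called at 0.1 or less. SE is the log2 fold change over the root of F. Whole-gland cells (103524) were clustered with scanpy 1.11.5 and leidenalg 0.10.2 (2000 variable genes, 1970 after leaving the members out, 40 components, 15 neighbours, resolution 1.0) into 43 clusters. Classes took "-like" names from marker lists. Clusters stayed unnamed with markers of 2 lineages, a high UMI count, leading cycling markers, fewer than 50 cells or no leading list. Low UMI counts did so only where no marker was among the leading genes, so cluster 41 (relative UMI 0.26) stayed basal-like. No doublet caller was run. Scripts were tested on simulated data. R was 4.3.3.

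Named were called members, up to 10 per comparison by size of change, with core members by role. Where none was called, up to 3 members with the smallest p and a mean of 50 or more were named, and in each class up to 5 members highest there. Alternatives were edgeR and DESeq2 1.42.0 on the reads or sums, a pseudocount of 8, other filters (none, 30 counts), only the compared groups, no TMM, the replicate block and leaving out each rat. Basal and luminal cells, and tumor and gland, came from the same rats and are paired by animal. The deviations of same-rat samples correlated at 0.00119 to 0.254 (basal and luminal), 0.00564 to 0.114 (tumor EPCAM+ and gland luminal) and −0.0098 to 0.108 (CD45+). Within a group and fraction, replicates are separate rats per the labels, after averaging samples of the same rat. Normalized counts carry no interval here, and the number of rats limits precision.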

Additional observations from a re-analysis of the deposited data

Results flagged for a closer look

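IL33 in mature luminal-like cells of TGFBRi rat 1 stood at 123 CPM, far above the other 5 treated rats. It was 1 of 21 groups of member and class looked at in this way, and chance marks about 1 in 20.

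Some members were called in opposite directions in 2 classes of the same glands, and the difference between the classes was not tested. IL1B had a log2 fold change of 0.45 in monocyte-like and −3.13 in mural-like cells, the latter not called without vehicle rat 4. IL1R1 had 0.35 in endothelium-like and −3.01 in Schwann-like cells. Without vehicle rat 4 the first was not called and the second could not be tested. IL33 had 1.03 in endothelium-like, −2.28 in macrophage-like and −2.82 in mature luminal-like cells.

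Some unnamed clusters of whole glands, left out of the comparisons, held more of a member than any named class, as the mean CPM of vehicle rats. A cluster led by IL22, CXCR6, IL2RA and IL23R held IL22 at 959.8 CPM, IL2RG at 1296, IL2RA at 486, IL7R at 327, IL5 at 162 and IL23R at 137. A cluster led by CCL17, CCL22 and FSCN1 held IL21R at 515, IL12B at 299 and IL18BP at 68.6 CPM. A cluster led by CCL19, GREM1 and CXCL13 held IL33 at 714 and IL11 at 276 CPM. IL18R1 stood at 118 CPM in a cycling cluster with CRABP1 and TNC, and IL10RA at 55.3 in a cluster of B cell genes with few UMIs.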

How the results depend on the processing

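No called direction turned under any alternative run. With DESeq2 in place of limma the counts of calls went to 16 from 3 (young ACI day 0), 20 from 3 (vehicle days), 12 from 0 (difference of the TGFBRi effect between days or with parity), 5 from 1 (adult), 9 from 0 (NMU glands), 7 from 2 (E2 pellet), 2 from 0 (TGFBRi in the E2 experiment) and 1 from 0 for days 7 and 14 and for parity. edgeR on the reads gave 1 for young ACI day 0 and 1 for the E2 pellet. Background shares in this text are those of limma for bulk and of edgeR for single cells. Shares of all genes by the other tools, or at an unadjusted p, are not given. Nothing particular to the members is read from those counts. A pseudocount of 8 gave 12 for young ACI day 0, 4 for the E2 pellet and 0 for the adult rats, and no filter gave 5 for young ACI day 0. Fits on only the 2 groups compared gave 13 for young ACI day 0, 1 for the vehicle days, 0 for the adult rats and 1 for the E2 pellet. With the replicate block, the adult call was lost (0 calls, IL1RL2 at a limma adjusted p of 0.0792). The adult numbers are only shared numbers, with correlations of −0.566 to 0.338 between same-numbered rats. The block by rat gave 29 calls for basal against luminal and 20 for tumor against gland and changed no other call among the named members. The cause of these changes was not tested. Counts for basal against luminal (21), tumor against gland (20), sorted single cells (29), whole glands (124) and members at 10 CPM or more (44) stayed within 1.5 times under the other settings.

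Leaving out each rat gave 1 to 28 calls for young ACI day 0 and 1 to 13 for the vehicle days. The difference of the TGFBRi effect gave 0 to 5. Days 7 and 14, young SD, parity and NMU tumors gave 0 to 0. Ranges were 0 to 2 for adult rats, 0 to 11 for NMU glands and 0 to 6 for the E2 pellet. They were 11 to 14 for basal against luminal, 6 to 16 for tumor against gland and 16 to 34 for sorted cells. Whole glands gave 95 to 127 and the levels 44 to 46 (the last chosen after seeing the data). No range is given for TGFBRi in the E2 experiment, where leaving out a tumor-bearing rat leaves an arm of 1. With each called member counted once per left-out rat, 1095 fits kept the call and 410 did not.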
